A study of Mus musculus with 4 samples.

Results

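The genes described here are 10 transcription factor genes of the AP-1 and small Maf families, measured as RNA in cultured HT22 cells. HT22 is a mouse line derived from hippocampal neurons, here with the strain label C57BL/6. They were taken by name, as the rows whose Ensembl identifier maps to the Fos family (Fos, Fosb, Fosl1 and Fosl2), the Jun family (Jun, Junb and Jund) and the small Maf family (Maff, Mafg and Mafk), and make up 10 of 20089 genes in the deposited tables. All 10 had a row in each of the 4 tables. The groups were cells with a lentivirus targeting Neat1 and deprived of oxygen and glucose (OGD), cells with a control negative lentivirus under OGD, Neat1 lentivirus cells in DMEM/F12 with 10% FBS (normal culture), and control lentivirus cells in normal culture. Each group held 1 library, so no difference below has a replicate check, and intervals cover counting error only. All 4 libraries come from 1 cell line infected with a lentivirus, and the length of OGD is not given in the sources used here.

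AP-1 is a family of dimers of basic leucine zipper proteins. A Fos protein must pair with a Jun protein to bind DNA, while Jun proteins can also pair among themselves, with Jun and Fos as strong activators and Junb and Jund as milder or context-dependent partners. Many of these genes are immediate early genes, switched on by growth factors, calcium, and the JNK, p38 and ERK kinases without new protein synthesis, and Fos is widely used as a mark of recent neuronal activity. The small Maf proteins lack an activation domain. They repress as pairs of their own and activate as partners of NRF2 and related factors at antioxidant response elements.

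Neat1, the target, stood at 42.1 CPM (counts per library total, on the usual CPM scale and with TMM factors) in knockdown cells under OGD, 74.4 in control cells under OGD, 121 in knockdown cells in normal culture and 193 in control cells in normal culture. Library depth ran between 17232866 and 20764430 reads assigned to genes. The control library in normal culture stood apart in its brain-type transcripts. All 15 neuron markers had reads in every library, and their summed level was 322 CPM in knockdown cells under OGD, 106.5 in control cells under OGD, 44.1 in knockdown cells in normal culture and 3093 in control cells in normal culture. A single marker, the postsynaptic scaffold gene Dlg4, gave 131, 80.5, 32.6 and 53.5 CPM of these sums in the same order of libraries, and without it they were 191, 26.0, 11.5 and 3040 CPM. For 15 markers of other brain cells and blood the sums were 118, 24.6, 15.2 and 338 CPM in the same order of libraries. Of those, the microglial marker Aif1 was at 0 reads in the first 3 libraries, P2ry12 also in knockdown cells in normal culture, and Gfap, Aqp4, Cldn5 and Cx3cr1 also in control cells under OGD. In knockdown cells in normal culture 5 of 15 neuron markers reached 20 reads. Any relation of these marker levels to the AP-1 values was not tested. Where the marker transcripts came from was not tested either. In bulk RNA another source of RNA, fewer cells of a type and less RNA per cell cannot be told apart.

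Promoter sequence is shown for Jun and Maff, the members with the largest OGD ratios in the Jun and small Maf families. Among the members' windows, only theirs held an exact match to the AP-1-type letters TGACATCA or the cyclic AMP response element TGACGTCA. RefSeq windows (build GRCm38.p6, from 250 bases before to 50 bases after a start) matched 9 of 10 members in 11 windows, with 3 starts for Maff. The first Maff window held none of the motifs named below and is not shown. Capitals mark the matched letters, and every sequence is given 5′ to 3′ on the gene's strand. The Jun window is chr4:95052173-95052472 on the minus strand, and the Maff windows are chr15:79347270-79347569 and chr15:79348152-79348451 on the plus strand.
Jun: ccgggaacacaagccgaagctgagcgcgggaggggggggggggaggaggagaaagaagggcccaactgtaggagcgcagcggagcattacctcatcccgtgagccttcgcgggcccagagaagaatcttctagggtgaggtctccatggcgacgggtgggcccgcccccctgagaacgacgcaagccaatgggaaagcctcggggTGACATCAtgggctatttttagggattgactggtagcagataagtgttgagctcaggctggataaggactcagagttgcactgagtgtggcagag
Maff, middle start: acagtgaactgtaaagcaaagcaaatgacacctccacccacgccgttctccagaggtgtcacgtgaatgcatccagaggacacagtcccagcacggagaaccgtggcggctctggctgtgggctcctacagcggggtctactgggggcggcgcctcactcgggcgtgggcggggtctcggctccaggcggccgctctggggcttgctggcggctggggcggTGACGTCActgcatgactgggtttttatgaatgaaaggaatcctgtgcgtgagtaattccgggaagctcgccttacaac
Maff, last start: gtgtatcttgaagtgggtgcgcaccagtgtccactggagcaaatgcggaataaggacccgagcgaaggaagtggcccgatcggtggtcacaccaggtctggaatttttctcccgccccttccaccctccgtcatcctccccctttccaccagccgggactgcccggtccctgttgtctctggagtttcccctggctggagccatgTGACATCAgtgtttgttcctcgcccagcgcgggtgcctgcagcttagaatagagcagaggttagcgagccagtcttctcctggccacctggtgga
The capitals in Jun and in the last Maff window are TGACATCA, the variant AP-1 site for which the Jun promoter is known, and in each of these windows it begins 45 bases before the start. The same letters, on either strand, were in 3.62% of 32851 promoter windows of the same length. The capitals in the middle Maff window are TGACGTCA, the cyclic AMP response element, 29 bases before the start, which 1.79% of all windows held. No member window held the AP-1 site TGACTCA (5.20% of all windows), the CArG box of serum response elements (1.63%) or the ATF4 element TTGCATCA (0.895%). The short hypoxia response core ACGTG was in 4 of 11 member windows, each of a different member, against 19.6% of all windows. GCGTG was in 6 of 11, again each of a different member, against 32.4% of all windows. The Jund window, chr8:70697489-70697788, held ACGTG but ends before the Jund gene start at 70698949 given below. All motifs were searched on both strands, and none contains another, though neighbouring matches may share letters. These are exact letter matches in a short window. Other variants of the motifs, such as a partial cyclic AMP response element, and sites outside the window were not looked for.

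Compared per transcript length, Junb was the highest member in every library and Fosb the lowest. Levels are given in FPKM (reads scaled to transcript length and library size, as deposited) where genes are set against each other. Junb had 471 FPKM in knockdown cells under OGD, 155 in control cells under OGD, 316 in knockdown cells in normal culture and 308 in control cells in normal culture. Fosb had 7.26, 2.02, 0.050 and 1.08 FPKM in the same order. Between them the order differed among the libraries. Maff ranked 2nd among the 10 in knockdown cells under OGD and 3rd in control cells under OGD, against 5th in knockdown cells and 7th in control cells in normal culture. Fos ranked 5th in knockdown cells under OGD, 7th in control cells under OGD and 7th in knockdown cells in normal culture, against 8th in control cells in normal culture. Neighbours in the order were often close: in control cells under OGD Fosl2 had 55.2 and Fosl1 54.8 FPKM. FPKM came without read intervals, so no order between such neighbours is read.

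**Figure D1:**
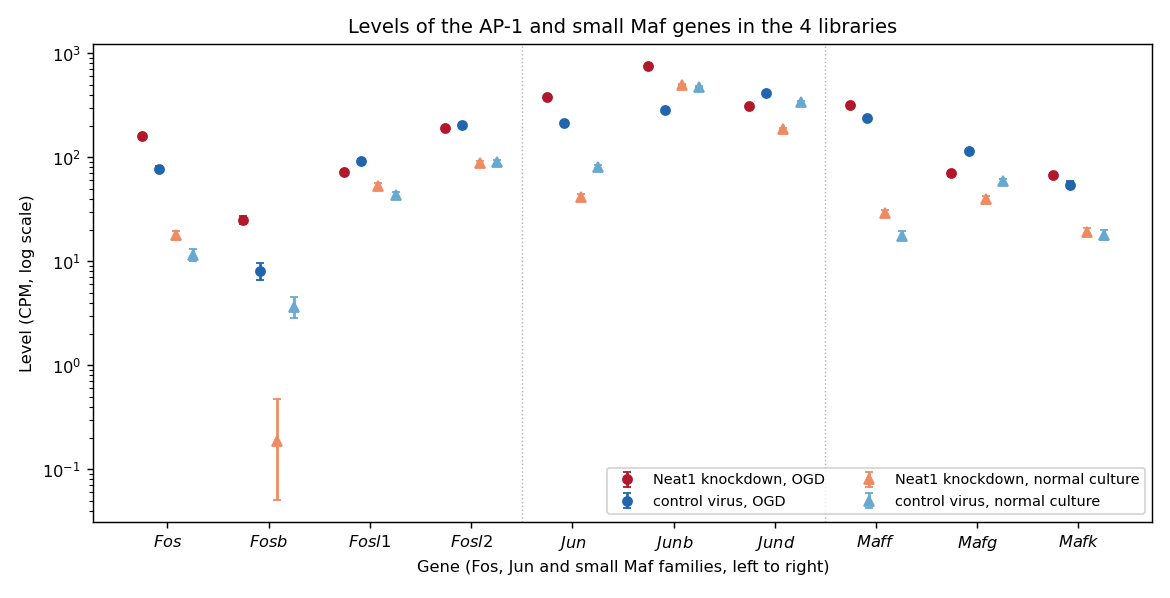
Level of each gene in CPM on a log axis, with 1 point per library and exact 95% Poisson intervals as bars; dotted lines separate the Fos, Jun and small Maf families. The OGD libraries (circles) both lie above the normal-culture libraries (triangles) for every gene but Junb and Jund, and the Fosb point at 0.186 CPM in knockdown cells in normal culture rests on 4 reads.

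The response to OGD was compared within knockdown cells and within control cells. The ratio used is that of CPM with 0.5 CPM added, on the log2 scale, and genes past 2-fold were called higher or lower if the larger of their paired read counts reached 20, as it did for all 10 members in every comparison. The rule is one of size, with no test behind it. In knockdown cells 6 of 10 members were at least 2-fold higher under OGD and 0 lower, against 19.1% of 14071 genes higher and 16.9% lower. In control cells 7 of 10 were higher and 0 lower, against 9.36% of 14101 genes higher and 22.2% lower. The members' median log2 ratio was 1.45 in knockdown cells, where that of all genes was -0.0020, and 1.13 in control cells, where that of all genes was -0.11. With total counts in place of TMM, 4 members passed in control cells (Fos, Jun, Maff and Mafk) and the median was 0.89, because that scaling moves the median of all genes by -0.23 in this comparison. With that scaling 866 of all genes were higher and 3808 lower, against 1320 and 3125 with TMM. The comparison within knockdown cells does not use the control library in normal culture. In it, all 15 neuron markers were at least 2-fold higher under OGD, whereas in control cells 13 of 15 were lower, and their part in the members' ratios was not tested. The same libraries serve in several comparisons, so the comparisons are not independent of each other.

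Among the Fos family, Fos was the member with the largest ratio in control cells. Fos (ENSMUSG00000021250, chr12:85473890-85477273 in GRCm38), the founding partner of Jun, had 161 CPM in knockdown cells under OGD (95% interval 156 to 167), 77.4 in control cells under OGD (73.1 to 81.9), 17.7 in knockdown cells in normal culture (16.0 to 19.6) and 11.6 in control cells in normal culture (10.1 to 13.2). The OGD libraries thus lay above both normal-culture libraries, and no intervals of the 4 overlapped. OGD went with a 9.11-fold higher level in knockdown cells (8.19 to 10.2) and a 6.69-fold higher level in control cells (5.80 to 7.74). In control cells the Fos log2 ratio of 2.69 fell to 2.45 with total counts and 2.25 with FPKM, further than its counting interval allows. Of all genes tested, 1.21% had a larger OGD ratio than Fos in knockdown cells and 0.376% in control cells.

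Fosb (ENSMUSG00000003545, chr7:19302696-19310051), a paralog whose truncated splice form accumulates in neurons after repeated stimulation, was the least abundant member and had the widest spread. It held 490 reads in knockdown cells under OGD, 123 in control cells under OGD, 4 in knockdown cells in normal culture and 71 in control cells in normal culture. Knockdown cells in normal culture were low against the other 3 libraries, and none of the intervals overlapped. In knockdown cells Fosb was 134-fold higher under OGD, with a counting interval of 52.1 to 495 on a base of 4 reads. The log2 ratio with 0.5 CPM added was 5.22, and 3.63 with 2 CPM added. In control cells Fosb was 2.21-fold higher (1.64 to 3.00).

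Fosl1 and Fosl2, the Fra proteins, which lack the activation domain of Fos and are typically made later and kept longer, had smaller OGD ratios than Fos in each kind of cell. In control cells their log2 ratios, 1.06 for Fosl1 and 1.20 for Fosl2, lay near the 1.04 of Fosb. Fosl2 (ENSMUSG00000029135, chr5:32135801-32157842) had 191 CPM in knockdown cells under OGD, 206 in control cells under OGD, 88.5 in knockdown cells in normal culture and 89.4 in control cells in normal culture. Both OGD libraries were high and the normal-culture libraries overlapped within their counting intervals. Fosl2 was 2.16-fold higher under OGD in knockdown cells (2.04 to 2.28) and 2.30-fold higher in control cells (2.17 to 2.44). Fosl1 (ENSMUSG00000024912, chr19:5447547-5455946) had 72.2, 91.6, 53.1 and 43.8 CPM in the same order of libraries, 1.36-fold higher under OGD in knockdown cells (1.26 to 1.47) and 2.10-fold higher in control cells (1.92 to 2.28). Fosl1 overlaps Ccdc85b on the opposite strand, and whether reads were counted by strand is not given in the sources used here.

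The Jun family divided under OGD. Jun (ENSMUSG00000052684, chr4:95049034-95052222), the main transactivating partner and a substrate of JNK, had 382 CPM in knockdown cells under OGD, 214 in control cells under OGD, 41.6 in knockdown cells in normal culture and 79.9 in control cells in normal culture. Both OGD libraries lay above both normal-culture libraries, and knockdown cells were the highest under OGD and the lowest in normal culture. Jun was 9.17-fold higher under OGD in knockdown cells (8.55 to 9.84) and 2.67-fold higher in control cells (2.52 to 2.84). The antisense transcript Junos overlaps Jun and held 36 reads in knockdown cells under OGD, 8 in control cells under OGD and 0 in either library in normal culture.

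Junb (ENSMUSG00000052837, chr8:84974484-84978718), a Jun paralog that can restrain Jun, had OGD ratios on opposite sides of 0 in the knockdown and control cells. It had 747 CPM in knockdown cells under OGD (735 to 760), 283 in control cells under OGD (275 to 292), 500.4 in knockdown cells in normal culture (491 to 510) and 477 in control cells in normal culture (467 to 486). The normal-culture libraries were close, and the OGD libraries lay on either side of them. Junb was 1.49-fold higher under OGD in knockdown cells (1.46 to 1.53) and 1.68-fold lower in control cells (1.62 to 1.75), neither of which passed the 2-fold rule. Junb overlaps Prdx2, a peroxiredoxin gene on the opposite strand, which held 7945 reads in knockdown cells under OGD, 6594 in control cells under OGD, 13046 in knockdown cells in normal culture and 11932 in control cells in normal culture. These reads are not scaled to library size, and control cells under OGD had the fewest assigned reads, 17232866. Whether Junb and Prdx2 share reads was not tested.

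Jund (ENSMUSG00000071076, chr8:70698949-70700616), the most steadily expressed Jun protein in most tissues, had 313 CPM in knockdown cells under OGD, 411 in control cells under OGD, 186 in knockdown cells in normal culture and 338 in control cells in normal culture. Its lowest level was thus in knockdown cells in normal culture. Its OGD ratio was 1.68-fold higher in knockdown cells (1.62 to 1.75) and 1.22-fold higher in control cells (1.17 to 1.26), and in control cells the log2 ratio of 0.28 shrank to 0.04 with total counts. Jund overlaps the antisense gene Gm11175.

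Of the small Maf genes, Maff had the largest OGD ratio, in each kind of cell. Maff (ENSMUSG00000042622, chr15:79346621-79359076), the stress-inducible small Maf, had 317 CPM in knockdown cells under OGD (310 to 325), 236 in control cells under OGD (228 to 244), 28.9 in knockdown cells in normal culture (26.6 to 31.2) and 17.6 in control cells in normal culture (15.8 to 19.6). Both OGD libraries stood far above both normal-culture libraries. In knockdown cells Maff was 10.99-fold higher under OGD (10.1 to 12.0), with 0.689% of genes above it. In control cells it was 13.4-fold higher, with 0.0638% of genes above it.

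Mafk (ENSMUSG00000018143, chr5:139791513-139802653), another small Maf that can partner NRF2, had smaller OGD ratios than Maff. It had 67.2 CPM in knockdown cells under OGD, 54.7 in control cells under OGD, 19.1 in knockdown cells in normal culture and 17.8 in control cells in normal culture. Mafk was 3.51-fold higher under OGD in knockdown cells (3.14 to 3.93) and 3.06-fold higher in control cells (2.70 to 3.48). Mafg (ENSMUSG00000051510, chr11:120625117-120633600), a broadly expressed small Maf, had 70.2, 114, 40.1 and 59.0 CPM in the same order of libraries. It was 1.75-fold higher in knockdown cells (1.61 to 1.91) and 1.94-fold higher in control cells (1.80 to 2.09), below the 2-fold rule in each. For Mafg the 2 measures differed: FPKM was 23.8 in knockdown cells under OGD, 27.6 in control cells under OGD, 11.8 in knockdown cells in normal culture and 23.7 in control cells in normal culture. On that scale the log2 ratio in control cells was 0.22, against 0.95 by reads. Mafg shares its strand and part of its span with Sirt7, so reads of the pair may not be separable.

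**Figure D2:**
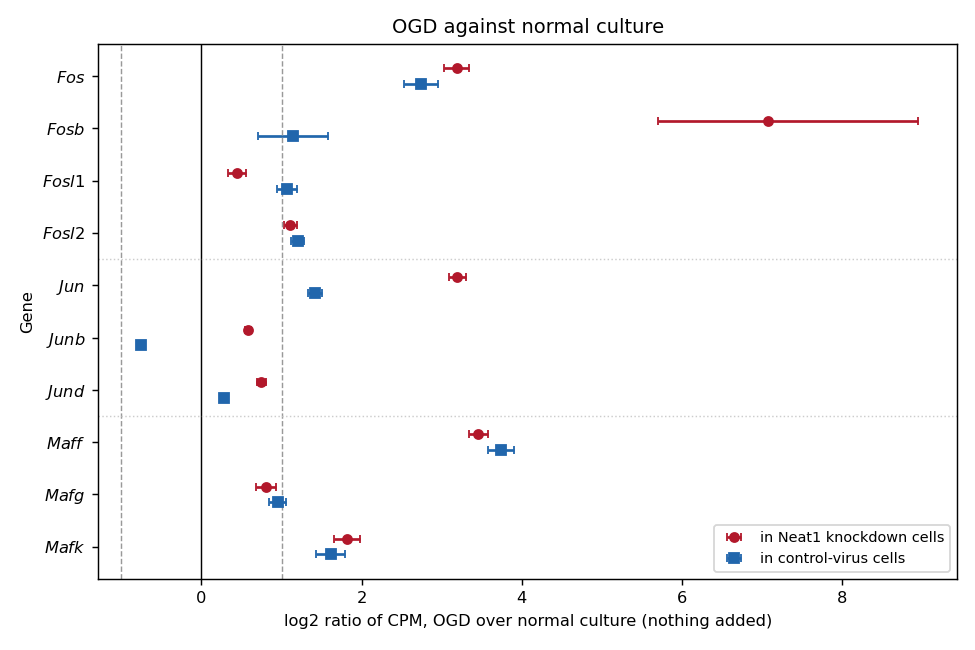
Log2 ratio of CPM under OGD over normal culture for each gene, in Neat1 knockdown cells (circles) and control-virus cells (squares), without an added CPM; bars are exact 95% counting intervals and dashed lines mark 2-fold. Fos, Fosb, Fosl2, Jun, Maff and Mafk lie beyond 2-fold in both kinds of cell. Fosb and Jun are much farther out in knockdown cells, and Junb lies on opposite sides of 0.

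The summed level and make-up of each family differed between cultures. The small Maf genes together had 240 FPKM in knockdown cells under OGD and 169 in control cells under OGD, against 36.3 in knockdown cells and 41.5 in control cells in normal culture. By CPM the small Maf sums were 455, 405, 88.1 and 94.45 in the same order of libraries. The Fos family sums were 449, 383, 159 and 148 CPM in that order. In both families the OGD libraries lay closer together by CPM than by FPKM. Maff made up 79.5% of the small Maf FPKM sum in knockdown cells under OGD and 73.0% in control cells under OGD. In normal culture its share was 47.8% in knockdown cells and 26.2% in control cells. In the Fos family Fos made up 50.4% and 30.8% of the FPKM sum under OGD in knockdown and control cells. In normal culture its share was 19.0% in knockdown cells and 15.8% in control cells. The Jun family summed to 724 FPKM in knockdown cells under OGD, 357 in control cells under OGD, 402 in knockdown cells in normal culture and 470.3 in control cells in normal culture. By CPM the Jun family sums were 1442, 908, 728 and 894 in the same order of libraries, so that control cells under OGD lay slightly above control cells in normal culture by CPM and below them by FPKM. Junb made up 65.1% of the FPKM sum in knockdown cells under OGD, 43.5% in control cells under OGD, 78.5% in knockdown cells in normal culture and 65.6% in control cells in normal culture. These are shares of RNA, and protein was not measured.

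**Figure D3:**
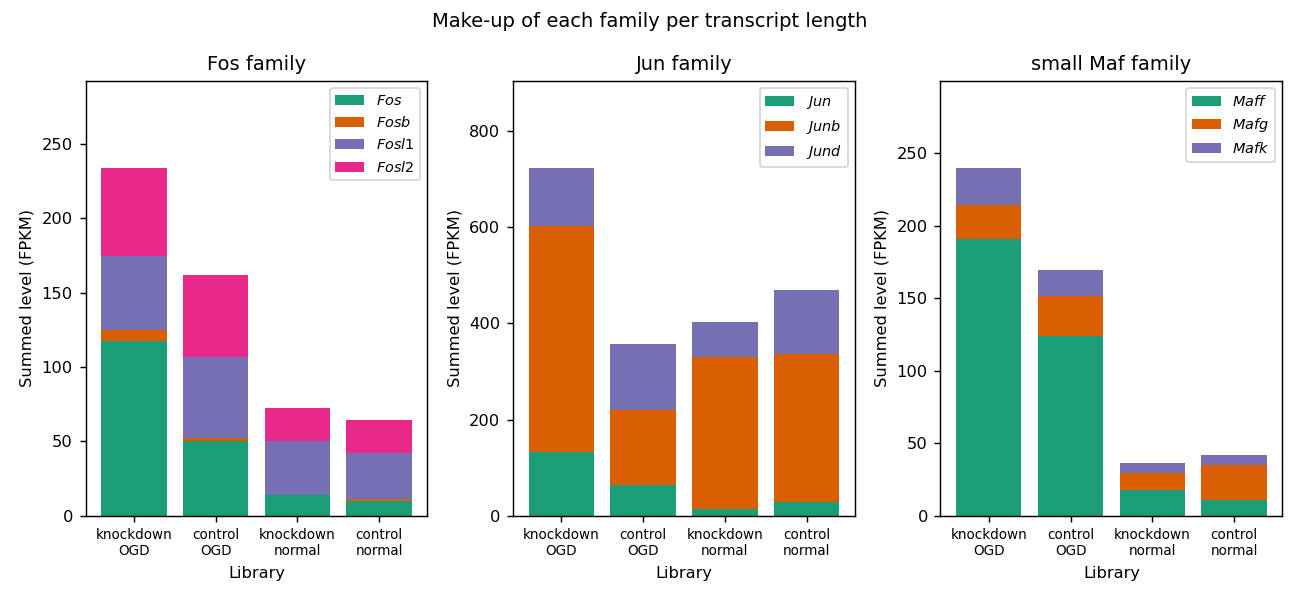
Summed FPKM of the Fos, Jun and small Maf genes in each library, with 1 stacked bar per library and a colour per gene. Maff and Fos take larger parts of their families in the OGD bars, and Junb is the largest part of the Jun bar in every library.

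The effect of the Neat1 lentivirus was compared within each culture. Under OGD 3 of 10 members were at least 2-fold higher in knockdown cells and 0 lower, against 10.7% of 13388 genes higher and 4.23% lower. The median of the members was 0.36 and that of all genes -0.00071. Fosb was 3.13-fold higher (2.56 to 3.85), Junb 2.64-fold (2.55 to 2.73) and Fos 2.08-fold (1.95 to 2.23). Jun was 1.79-fold higher (1.71 to 1.86), short of the rule with TMM scaling, and passed it with total counts at a log2 ratio of 1.04. That scaling moves the median of all genes by 0.19 here, brings the members' median to 0.56, and gives 1788 genes higher and 384 lower, against 1437 and 566 with TMM. Maff was 1.34-fold higher and Mafk 1.23-fold higher. Lower in knockdown cells under OGD, by less than 2-fold, were Mafg (1.62-fold, 1.51 to 1.74), Jund (1.31-fold) and Fosl1 (1.27-fold). The interval of Fosl2 was -0.18 to -0.04 on the log2 scale with TMM scaling, and its sign turned to 0.09 with total counts. Beside these values, 14 of 15 neuron markers were at least 2-fold higher in the same comparison. So were 7 of 8 markers of other brain cells and blood with 20 reads. The part of both marker lists in the result was not tested. The control library in normal culture is not used in the comparison under OGD.

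In normal culture 0 of 10 members were at least 2-fold higher in knockdown cells and 1 was lower, against 6.25% of 14554 genes higher and 16.3% lower. The median of the members was 0.03 and that of all genes -0.03. The lower member was Fosb, with 4 reads in knockdown cells and 71 in control cells (19.4-fold lower, 7.27 to 73.3). Jun was 1.92-fold lower (1.77 to 2.09), Jund 1.81-fold lower (1.74 to 1.89) and Mafg 1.47-fold lower (1.34 to 1.61). Maff was 1.64-fold higher (1.43 to 1.87), Fos 1.53-fold higher (1.29 to 1.81) and Fosl1 1.21-fold higher (1.11 to 1.33). Junb stood at 0.07 on the log2 scale. For Fosl2 and Mafk the counting interval of the log2 ratio spanned 0, from -0.11 to 0.08 for Fosl2 and from -0.11 to 0.31 for Mafk. In this comparison 14 of 15 neuron markers were at least 2-fold lower in knockdown cells. So were 7 of 8 markers of other brain cells and blood with 20 reads. The part of both marker lists in the lower Fosb, Jun and Jund levels was not tested.

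**Figure D4:**
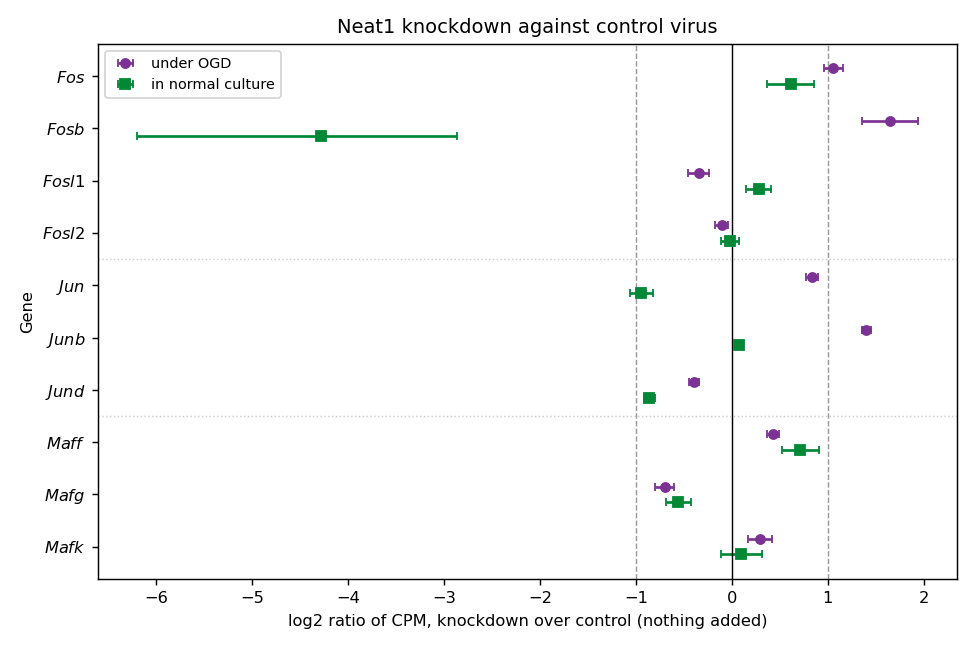
Log2 ratio of CPM in Neat1 knockdown over control-virus cells for each gene, under OGD (circles) and in normal culture (squares), without an added CPM; bars are exact 95% counting intervals and dashed lines mark 2-fold. Fosb, Jun and, closer in, Fosl1 lie on opposite sides of 0 in the 2 cultures, Junb is near 0 in normal culture and beyond 2-fold under OGD, and Mafg and Jund lie below 0 in both.

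The authors' deposited tables, in which each side is likewise 1 library, hold an adjusted p-value per gene. For OGD in knockdown cells, the authors' deposited table put 0 of 10 members below 0.05, against 0.0947% of its 17951 genes. For OGD in control cells, the authors' deposited table put Maff alone below 0.05 (adjusted p = 0.00398), against 1.21% of its 18879 genes. For knockdown under OGD, the authors' deposited table put Junb alone below 0.05 (adjusted p = 0.00904), against 0.124% of its 18502 genes. For knockdown in normal culture, the authors' deposited table put Jund alone below 0.05 (adjusted p = 0.0347), against 2.61% of its 18309 genes.

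How far the OGD response differed between the knockdown and control cells is given by the difference of the OGD log2 ratios, knockdown minus control. Each difference uses the control library in normal culture, where the neuron markers summed to 3093 CPM. The median OGD log2 ratio of those markers was 3.19 in knockdown cells and -5.67 in control cells. Their part in the members' differences was not tested. For the members the difference is given gene by gene. The difference was 4.17 for Fosb, where the 4 reads of knockdown cells in normal culture are too few for an interval. It ranged between 2.80 with 2 CPM added and 5.33 with 0.1 CPM added. It was 1.77 for Jun (counting interval 1.64 to 1.91) and 1.33 for Junb (1.27 to 1.39). The difference was 0.47 for Jund (0.39 to 0.54) and 0.46 for Fos (0.19 to 0.70). It was -0.62 for Fosl1 (-0.79 to -0.46) and -0.27 for Maff (-0.48 to -0.08). The intervals spanned 0 for Fosl2 (-0.21 to 0.02), Mafg (-0.31 to 0.02) and Mafk (-0.04 to 0.44). Over 15086 genes the median difference was 0.012 and 50.6% were above 0, and among the members 6 of 10 were above 0 with a median of 0.33. With total counts Fosl2 stood at 0.14, Mafg at 0.08 and Maff at -0.04. With FPKM ratios Mafg stood at 0.77.

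Other genes of the pathway came from lists of dimer partners, upstream kinases and factors, and known targets. Their counts stand against 19.1% of all genes higher and 16.9% lower under OGD in knockdown cells, and 9.36% higher and 22.2% lower in control cells, and several lie near those shares. Of 17 related basic leucine zipper genes 11 had at least 20 reads in knockdown cells' OGD comparison, of which 3 were at least 2-fold higher under OGD and 0 lower, and in control cells 1 of 12 was higher and 1 lower. Atf3, a stress-induced Jun partner, was higher in each, at 3.56 in knockdown cells and 3.19 in control cells on the log2 scale. Of 20 upstream genes with 20 reads, 7 were higher and 3 lower under OGD in knockdown cells, and 2 were higher and 3 lower in control cells. Srf, the serum response factor that drives Fos, stood at 1.33 in knockdown cells and 0.79 in control cells, the second short of 2-fold. Of the known AP-1 targets 2 of 13 were higher and 4 lower under OGD in knockdown cells, and 4 of 12 were higher and 4 lower in control cells. Ptgs2, the inducible cyclooxygenase, was higher (2.69 in knockdown cells and 2.88 in control cells), while Ccnd1, the G1 cyclin D1, was lower (-3.88 in knockdown cells and -2.23 in control cells). Of 12 targets of NRF2 with small Maf, 1 was higher and 2 lower under OGD in knockdown cells, and 3 were higher and 0 lower in control cells. Hmox1, haem oxygenase 1, was higher in each (1.92 in knockdown cells and 2.39 in control cells). With the lentivirus, where the shares of all genes were 10.7% higher and 4.23% lower under OGD and 6.25% higher and 16.3% lower in normal culture, 0 of 11 related basic leucine zipper genes passed 2-fold in either direction under OGD, and 0 were higher and 3 of 12 lower in normal culture. Of the upstream genes 1 of 19 was higher under OGD and 2 of 20 were lower in normal culture, with Mapk10, the JNK3 gene of neurons, in both counts. Of the AP-1 targets 1 of 11 was higher and 2 lower under OGD, and 1 of 12 was lower in normal culture. Of the NRF2 targets 0 of 12 passed under OGD, where Hmox1 stood just short of it at 0.998, and Hmox1 was the 1 that was higher in normal culture, at 1.47. Over the 4 comparisons the median log2 ratios of the related basic leucine zipper genes lay between -0.25 and 0.50. Those of the other lists are not covered by that range.

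The genes nearest to each member in pattern were found by the root mean square difference of log2(CPM + 0.5), centred on each gene's mean over the 4 libraries, among 10851 genes with at least 100 reads in their highest library, leaving out the members and genes with no symbol or with a clone, predicted, mitochondrial, microRNA or other small-RNA name. For Jun the nearest was Pnrc1, at 0.12, with 189 CPM in knockdown cells under OGD, 103 in control cells under OGD, 21.2 in knockdown cells in normal culture and 32.6 in control cells in normal culture. For Fos the nearest were Fam110c and Pim1, each at 0.17, and for Maff they were Cdkn1a at 0.18 and Atf3 at 0.20. For Fosb the nearest was Sp140, at 0.13, a gene with 0 reads in knockdown cells in normal culture. For Junb the nearest was Fgd6, at 0.04, and for Jund it was Zbtb49, at 0.04. Closest of all was Atxn1 to Mafg, at 0.013. With 4 libraries such likeness is a description only.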

How the data were processed

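RNA of 4 HT22 cultures, 1 library per group, was sequenced. The submitters' processing notes name TopHat2 and mm10. The library protocol marks a strand with deoxy-UTP, per the labels' protocols, but how reads were counted is not given in the sources used here. Per the file headers, each of 4 deposited tables compares a pair of libraries by size-factor scaled counts (a signal per gene) and an adjusted p-value. The authors deposited further columns headed by sample number only, read here as FPKM from their values. Dividing the deposited signal by its step gave whole reads for 100% of values (tolerance 1e-06 reads), equal wherever both tables of a library list a gene. Genes listed in neither table of a library were set to 0 reads.

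The TMM factors came from edgeR 4.0.16 (R 4.3.3), with DESeq2 1.42.0 size factors as an alternative. Ratios and intervals used scipy 1.17.1 under Python 3.11.15. Ratio intervals are exact conditional binomial and level intervals exact Poisson, both at 95% and without the added 0.5 CPM. Those of the difference of ratios use the delta method. Reads carried no molecular identifiers. Since each group holds 1 library, count tests were left out, including an additive fit, which has 1 residual degree of freedom. The size rule and intervals were tested on simulated Poisson reads. These hold no variation between cultures, so that check covers counting error only. Names and places are from GENCODE mouse release 21 (GRCm38), which matched 19912 of 20089 identifiers, and promoters from RefSeq. Members, lists and motifs were chosen with earlier results of these data known. Named genes were all members, Neat1, and up to 4 of each list past 2-fold where a result turned on them. Genes that overlap a member or mark a cell type were named too. The nearest gene in pattern was named for all members but Fosl1, Fosl2 and Mafk, and the 2 nearest for Fos and Maff. Batf, Batf2 and Mkl1 of the lists matched no row.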

Additional observations from a re-analysis of the deposited data

Results flagged for a closer look

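With 1 library per group the differences in this section were not tested. Each gene named here moved in opposite directions in the 2 cultures or in the 2 kinds of cell. With TMM scaling its counting intervals were clear of 0 on each side. In each case 1 side uses the control library in normal culture, which stood apart in its brain-type transcripts. For the lentivirus, Fosb stood at 1.59 under OGD and -2.59 in normal culture on the log2 scale, Jun at 0.83 and -0.93, and Fosl1 at -0.34 and 0.28, in that order of cultures. The Fosb value in normal culture rests on 4 reads in knockdown cells. With total counts Fosl1 under OGD stood at -0.14, a shift larger than its counting interval allows. For OGD, Junb stood at 0.58 in knockdown cells and -0.75 in control cells.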

How the results depend on the processing

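The alternatives were total counts, median-of-ratios size factors, FPKM ratios, other added CPM and other read floors. Of 324 values of single members with a counting interval, 268 moved by less than that interval allows and 56 moved further. Most of the 56 came with total counts or FPKM, and 0 values that had passed 2-fold changed sign. Read floors do not enter a single member's ratio, so the values under them, counted among the 268, could not move. The Fosb difference of ratios has no interval, and its 5 alternative values ran between 2.80 and 5.33 against 4.17. With total counts 4 members were higher under OGD in control cells, against 7, with a median of 0.89, and the median for knockdown under OGD was 0.56. With FPKM ratios the median was 0.54 for knockdown under OGD and 1.57 for OGD in knockdown cells. With a floor of 100 reads 0 members were lower with knockdown in normal culture, since Fosb with 71 reads falls below it.

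Counts over all genes depended more on the settings. With 2 CPM added, 283 genes were higher with knockdown in normal culture, against 910, while under OGD 535 were higher and 263 lower, against 1437 and 566. That setting put 1542 genes lower under OGD in knockdown cells, against 2375. With a floor of 100 reads the knockdown counts were 364 higher and 1297 lower in normal culture, against 910 and 2374, and 456 higher and 267 lower under OGD. The same floor gave 1635 higher under OGD in knockdown cells, against 2682, and 1923 lower in control cells, against 3125. With no floor 901 genes were lower with knockdown under OGD, against 566. FPKM ratios gave 327 lower in that comparison, and 836 higher under OGD in control cells, against 1320, where total counts gave 866. No paired analysis was possible because each group holds 1 library, and for the same reason no library could be left out. The difference of ratios was not recomputed with other read floors, which do not enter it.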
